A study of Mus musculus with 18 samples.

Results

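The autophagy machinery described here was 41 genes chosen as a list by function, from the kinases that start an autophagosome to the proteins that join it to a lysosome, and 40 of them were among the 11243 protein-coding genes counted. Rubcn was listed in the counts under its older symbol, 1700021K19Rik, and Optn was not analysed here. The cells were RAW264.7, a mouse macrophage line. They received the vehicle (DMSO) as control, LPS (lipopolysaccharide, a component of bacterial outer membranes) at 500 ng/mL for 6 h, or the same LPS after 15 min with torin1 at 100 nM, which inhibits the kinase mTOR. The label of the control cells gives no time. Total mRNA and mRNA associated with heavy polysomes were sequenced from the same lysates in 3 independent experiments, which gave 18 libraries from 9 lysates. A line in culture is 1 cell type, and LPS and torin1 were each used at 1 dose.

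Autophagy encloses cytoplasm, organelles or microbes in a double membrane and delivers them to lysosomes. The ULK kinase complex starts the process and the Beclin 1 complex, a lipid kinase, marks the membrane. A conjugation system resembling that of ubiquitin then attaches ATG8 proteins (the LC3 and GABARAP families) to the membrane, and cargo receptors link the material to be degraded to these ATG8 proteins. When nutrients are plentiful, mTOR phosphorylates ULK1 and ATG13 and holds the pathway back, and it also keeps Tfeb and Tfe3, transcription factors of lysosomal and autophagy genes, in the cytosol. In macrophages much of the same machinery acts on microbes and on phagosomes.

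The libraries held 27800983 to 47725557 counts. Of 10 macrophage markers, 9 were counted, with a summed level of 11514 to 21994 CPM (counts scaled to a common library total) in every library, and 0 of 9 markers of lymphocytes, fibroblasts, epithelium, endothelium and red cells were in the table. Genes with 0 counts in any sample had been removed from it, so the absence of these markers is no measure of purity. The lowest count of any autophagy member in a library was 11. A CPM value is a share of a library, so a change in one mRNA and a change in the total RNA of a cell cannot be told apart. CPM values below were normalised within total or within polysome-associated mRNA, and changes are log2 fold changes ± SE from edgeR with 3 libraries in each group. A gene was called higher or lower at an adjusted p of 0.25 or less over all 11243 genes, the false discovery rate used by the study.

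In control cells the members spanned a wide range of total mRNA per kilobase of exon. Exon length was that of all annotated exons of a gene together, not of the transcript expressed, and the ranks depend on it. Sqstm1, the ubiquitin-binding cargo receptor p62, was the most abundant at 97.2 ± 18.2 CPM per kb (SD, n = 3), followed by Gabarap at 69.8 ± 12.9 CPM per kb. The ranges of these genes, 84.3 to 118.1 and 58.4 to 83.8 CPM per kb, lay apart by less than 1 SD of either. Atg5, Gabarapl1 and Atg3 came next at 18.3 ± 0.62, 18.2 ± 2.03 and 17.2 ± 1.19 CPM per kb and did not differ beyond their spread. At the other end stood Calcoco1 with 1.14 ± 0.25, Map1lc3a with 0.751 ± 0.22 and Wipi1 with 0.160 ± 0.031 CPM per kb. The kinase Ulk1 was also low, at 2.03 ± 0.23 CPM per kb.

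Because several members rose together with torin1, their promoters were searched for CACGTG, the E-box letters at the core of the sequence that Tfeb and Tfe3 bind. RefSeq promoters of GRCm38.p6, from 250 bases before to 50 bases after a start annotated in RefSeq, were matched for 33 of the 40 members. CACGTG reads the same on both strands and was present for 5 of the 33 genes (15.2%), beside 12.05% of the counted genes with a promoter and 8.09% of all genes with one. The 24-base windows are printed 5′ to 3′ on the strand of the gene, with the motif in capitals and its position given from that RefSeq start. For Atg7, Atg14 and Rubcn this start lies inside the gene as the GENCODE annotation bounds it, so these windows are not upstream of the gene positions given further on.
Atg7 (chr6:114670955-114670978, + strand, motif start at -132): attggtggtCACGTGtgcagtaag
Atg14 (chr14:47568421-47568444, - strand, motif start at -1): acaaaatccCACGTGactggccct
Atg5 (chr10:44268316-44268339, + strand, motif start at -14): agcgcttgcCACGTGgtcttggtg
Rubcn (chr16:32868440-32868463, - strand, motif start at -88): ctagcacatCACGTGtacccaggt
Atg3, first match (chr16:45158726-45158749, + strand, motif start at -94): tccttttgtCACGTGtcctgggag
Atg3, second match (chr16:45158749-45158772, + strand, motif start at -71): gagtcgagtCACGTGaggccttag
The second Atg3 match also held the longer palindrome TCACGTGA, which contains CACGTG and was found in 1 of the 33 member genes (3.03%) and in 2.23% of the counted genes. The letters TGACNNNGC, the core of the antioxidant response element, were found on either strand for 4 of the 33 (12.1%), namely Atg13, Tax1bp1, Map1lc3b and Ulk2, beside 17.1% of the counted genes. These matches are letters in a window and no measure of binding.

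To ask how macrophage activation changed the machinery, LPS-treated cells were compared with control cells. LPS moved the members in both directions: in total mRNA 15 rose and 14 fell of 40, with a median log2 fold change of -0.05. Over all genes 66.5% were called (32.2% higher and 34.3% lower), so the members' counts stood near the background. In polysome-associated mRNA 14 rose and 13 fell, with a median of 0.04, beside 55.1% of all genes (26.4% higher and 28.7% lower). The 25 members called in both RNA types, 14 higher and 11 lower, moved the same way in both. The polysome count was 12 without replicate 1 and 14 without replicate 3, and at an adjusted p of 0.05 the counts were 19 in total and 9 in polysome-associated mRNA. No share of all genes is given for these settings, so these counts show nothing particular to the members.

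Initiation genes moved both ways under LPS, as all genes did. In total mRNA 4 of the 10 rose and 3 fell, beside 32.2% of all genes higher and 34.3% lower. In polysome-associated mRNA 4 rose and 5 fell, beside 26.4% higher and 28.7% lower. The medians of the initiation genes were -0.10 and -0.21. Without replicate 3 the median in total mRNA was 0.0010. Gene positions here and below are those of the GENCODE annotation of GRCm38. Ulk1, the kinase that starts autophagosome formation (chr5:110784488-110810097), had 11.9, 12.8 and 14.7 CPM in control cells, 6.40, 7.86 and 7.35 CPM after LPS, and 20.5, 16.1 and 19.6 CPM after LPS with torin1 in total mRNA. The 3 LPS libraries lay below all control libraries, and the LPS with torin1 libraries above them. Its fall with LPS was -0.87 ± 0.15, adjusted p = 0.000875. On polysomes Ulk1 had 33.1, 25.4 and 30.4 CPM in control cells, 16.1, 16.1 and 12.6 CPM after LPS, and 30.6, 38.9 and 28.96 CPM after LPS with torin1. Here too the LPS libraries were lowest (-0.99 ± 0.18, adjusted p = 0.00197), while those with torin1 overlapped the control libraries.

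The related kinase Ulk2 fell less, by a log2 change of -0.43 ± 0.12 in total mRNA and -0.39 ± 0.14 on polysomes. By contrast, the complex's scaffold Rb1cc1 (FIP200) and its adaptor Atg13 rose, at 0.46 ± 0.19, adjusted p = 0.0691 and 0.57 ± 0.11, adjusted p = 0.00187 in total mRNA and at 0.50 ± 0.18 and 0.43 ± 0.19 on polysomes. In total mRNA Rb1cc1 changed by 0.80, 0.44 and -0.01 in experiments 1, 2 and 3, so experiment 3 showed no rise. Rb1cc1 may also share reads with a processed pseudogene. Atg101, the partner of Atg13, was called lower on polysomes (-0.37 ± 0.21, adjusted p = 0.208) and not in total mRNA (-0.14 ± 0.13), but its translation efficiency, the change on polysomes beyond that in total mRNA, was -0.23 ± 0.25 and not called.

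In the Beclin 1 complex, the scaffold Becn1 rose (0.34 ± 0.11, adjusted p = 0.0312), as did Ambra1, which regulates it. Ambra1 (chr2:91730134-91918849) had 75.1, 74.7 and 78.6 CPM in control cells, 115.4, 100.8 and 114.5 CPM after LPS, and 121.97, 105.2 and 108.2 CPM after LPS with torin1 in total mRNA. Both LPS groups exceeded every control library and overlapped each other. The change with LPS was 0.53 ± 0.10, adjusted p = 0.00136. On polysomes the values were 110.8, 86.5 and 83.7 CPM in control cells, 147, 128.7 and 123.3 CPM after LPS, and 136.1, 117.4 and 110.6 CPM after LPS with torin1, where the LPS libraries again exceeded the controls (0.51 ± 0.16, adjusted p = 0.0309) and those with torin1 reached down to the highest control. Rubcn, an inhibitor of the complex, fell in both RNA types (-0.40 ± 0.11 and -0.46 ± 0.19), and Uvrag, the subunit tied to endosomes, was at -0.06 ± 0.17 and -0.05 ± 0.16 and was not called.

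Atg14, the subunit that directs the lipid kinase to the forming autophagosome (chr14:47540893-47570649), differed most between the RNA types. Its total mRNA was 10.5, 10.1 and 8.37 CPM in control cells, 9.31, 7.59 and 8.46 CPM after LPS, and 18.5, 16.8 and 16.1 CPM after LPS with torin1, with the control and LPS libraries overlapping (-0.19 ± 0.14, adjusted p = 0.289). With the replicate as a block this difference was called lower (adjusted p = 0.197). On polysomes Atg14 had 10.2, 9.21 and 7.93 CPM in control cells, 5.84, 5.80 and 5.42 CPM after LPS, and 13.2, 13.1 and 12.5 CPM after LPS with torin1. All 3 LPS libraries there lay below all control libraries (-0.68 ± 0.17, adjusted p = 0.00959). The difference between the RNA types, tested as translation efficiency, was -0.49 ± 0.19, adjusted p = 1.

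Among the genes of membrane supply and of the WIPI family, which bind the lipid that the Beclin 1 complex makes, 2 of 7 rose and 3 fell in total mRNA. On polysomes 2 rose and 2 fell. Of all genes 32.2% were higher and 34.3% lower in total mRNA, and 26.4% and 28.7% on polysomes. Wipi1 (chr11:109573331-109611967) had 0.638, 0.862 and 0.615 CPM in control cells, 0.391, 0.360 and 0.3396 CPM after LPS, and 0.954, 1.31 and 1.32 CPM after LPS with torin1 in total mRNA. Levels were low throughout, yet the LPS libraries did not overlap the others, and the fall with LPS was -0.96 ± 0.30, adjusted p = 0.0229. Its polysome values were 1.07, 1.06 and 0.827 CPM in control cells, 0.516, 0.559 and 0.337 CPM after LPS, and 1.24, 1.46 and 0.952 CPM after LPS with torin1, and LPS was again lowest (-1.06 ± 0.33, adjusted p = 0.0295). Wipi2 and Wdr45b (WIPI3) rose instead, by log2 changes of 0.52 ± 0.10 and 0.32 ± 0.09 in total mRNA and 0.51 ± 0.14 and 0.35 ± 0.14 on polysomes. Of the lipid transfer proteins, Atg2b fell in both RNA types (-0.40 ± 0.10 and -0.40 ± 0.16) and Atg2a was called lower in total mRNA (-0.27 ± 0.16, adjusted p = 0.194). There Atg2a changed by -0.77, 0.17 and -0.28 in experiments 1, 2 and 3, so experiment 2 showed no fall. On polysomes Atg2a was not called, at a similar -0.26 ± 0.28, and its translation efficiency was 0.01 ± 0.34. Atg9a, the lipid scramblase of the vesicles that seed the membrane, and Wdr45 (WIPI4) were not called.

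Of the 16 conjugation genes, 7 rose and 4 fell in total mRNA, and 6 rose and 2 fell on polysomes, with medians of 0.13 and 0.17. The shares of all genes were 32.2% higher and 34.3% lower in total mRNA, and 26.4% and 28.7% on polysomes. The enzymes that rose in total mRNA were Atg3, the E2-like enzyme for ATG8 proteins, the proteases Atg4a and Atg4d, the ubiquitin-like Atg12 and its partner Atg16l1, with log2 changes between 0.29 and 0.61. On polysomes Atg4d missed the threshold (0.43 ± 0.36, adjusted p = 0.392) and the other 4 were called higher. Atg4a changed there by 1.05, -0.05 and 0.32 in experiments 1, 2 and 3, so experiment 2 showed no rise. Atg4c, Atg5, Atg10 and Atg16l2 fell in total mRNA. Atg5 changed by 0.00032, -0.22 and -0.43 in experiments 1, 2 and 3, so experiment 1 showed no fall. Atg16l2, a relative of Atg16l1 (chr7:101263034-101302251), had 14.6, 12.7 and 12.4 CPM in control cells, 8.50, 8.25 and 6.85 CPM after LPS, and 12.6, 9.71 and 9.65 CPM after LPS with torin1. The 3 treatments formed separate ranges apart from 1 library with torin1 that reached into the control range, and the fall with LPS was -0.75 ± 0.16, adjusted p = 0.00276. On polysomes Atg16l2 had 25.6, 15.2 and 20.7 CPM in control cells, 17.5, 12.7 and 10.4 CPM after LPS, and 19.1, 18.6 and 13.3 CPM after LPS with torin1. The groups overlapped there, the fall was -0.60 ± 0.25, adjusted p = 0.093, and it was not called without replicate 3. Atg7, the E1-like enzyme, and the protease Atg4b were not called (0.09 ± 0.15 and 0.13 ± 0.09 in total mRNA), although Atg4b was called higher with the replicate as a block (adjusted p = 0.222).

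Of the 5 ATG8 genes, Gabarap and Gabarapl1 rose. Gabarap (chr11:69991143-69994951) had 123.8, 154 and 107.7 CPM in control cells, 203, 175 and 139.9 CPM after LPS, and 227, 229 and 187 CPM after LPS with torin1 in total mRNA. Its control and LPS ranges overlapped, and the rise of 0.43 ± 0.17, adjusted p = 0.0608 was not called without replicate 1. Polysome values of Gabarap were 154, 249 and 147 CPM in control cells, 316, 282 and 212 CPM after LPS, and 397, 364 and 336 CPM after LPS with torin1, again with overlap between control and LPS (0.56 ± 0.22, adjusted p = 0.0818, not called without replicate 1). Gabarapl1 (chr6:129533160-129542346) had 36.5, 40.9 and 32.8 CPM in control cells, 62.99, 52.4 and 47.98 CPM after LPS, and 67.6, 62.4 and 67.2 CPM after LPS with torin1 in total mRNA. The LPS libraries all exceeded the controls (0.57 ± 0.12, adjusted p = 0.0035). The same held on polysomes, where Gabarapl1 had 64.02, 61.2 and 53.7 CPM in control cells, 92.6, 91.97 and 75.4 CPM after LPS, and 115.3, 96.5 and 100.1 CPM after LPS with torin1 (0.54 ± 0.15, adjusted p = 0.0164).

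Map1lc3b (LC3B), the ATG8 protein most used as a marker of autophagosomes (chr8:121590361-121598760), had 31.04, 36.5 and 26.4 CPM in control cells, 33.4, 28.99 and 25.6 CPM after LPS, and 65.4, 66.9 and 61.6 CPM after LPS with torin1 in total mRNA. Control and LPS libraries overlapped, at -0.09 ± 0.14, adjusted p = 0.602. On polysomes it had 56.3, 60.9 and 47.1 CPM in control cells, 61.5, 58.6 and 45.8 CPM after LPS, and 103.3, 115.03 and 98.8 CPM after LPS with torin1, with the same overlap (0.01 ± 0.16, adjusted p = 0.955). Map1lc3a was likewise not called (-0.05 ± 0.28 and 0.18 ± 0.42). Gabarapl2 was at 0.13 ± 0.11 and 0.16 ± 0.15, and its value in total mRNA was called higher with the replicate as a block (adjusted p = 0.188).

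Among the 4 cargo receptors, LPS raised Sqstm1 and Tax1bp1 and lowered Nbr1 and Calcoco1, in both RNA types. The medians of the group were therefore near 0, at 0.01 and 0.09. Sqstm1 (chr11:50199366-50210827) rose 3.09-fold, the largest change with LPS of any member in total mRNA. Its total mRNA was 299, 396 and 283 CPM in control cells, 985, 1208 and 829.9 CPM after LPS, and 1881, 1761 and 2083 CPM after LPS with torin1. The 3 treatments did not overlap, and the change with LPS was 1.63 ± 0.17, adjusted p = 3.87e-05. On polysomes the values were 355, 357 and 269 CPM in control cells, 1058, 1083 and 834 CPM after LPS, and 2134, 1851 and 2098 CPM after LPS with torin1, equally separate, with 1.60 ± 0.18, adjusted p = 8.5e-05. Tax1bp1, another receptor for ubiquitinated cargo, rose by a log2 change of 0.46 ± 0.13 in total mRNA and 0.46 ± 0.19 on polysomes.

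Nbr1, a relative of p62, fell (-0.44 ± 0.14 and -0.29 ± 0.17). Calcoco1, a receptor for endoplasmic reticulum (chr15:102706777-102722178), had 4.98, 7.88 and 6.67 CPM in control cells, 2.70, 6.93 and 4.54 CPM after LPS, and 18.03, 22.5 and 20.3 CPM after LPS with torin1 in total mRNA. The control and LPS ranges overlapped, and the call was marginal (-0.46 ± 0.29, adjusted p = 0.226). It was not called without replicate 1 or without replicate 3. On polysomes it had 5.89, 5.58 and 5.58 CPM in control cells, 1.94, 4.12 and 3.89 CPM after LPS, and 13.1, 16.2 and 15.2 CPM after LPS with torin1, with all LPS libraries below the controls (-0.77 ± 0.26, adjusted p = 0.0432).

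Of the 3 fusion genes, Epg5, a tether of autophagosomes to lysosomes, fell (-0.26 ± 0.12 and -0.29 ± 0.16), and so did Stx17, the SNARE protein on the autophagosome. Stx17 (chr4:48124915-48186507) had 32.05, 27.6 and 29.2 CPM in control cells, 23.7, 19.3 and 21.6 CPM after LPS, and 26.03, 20.7 and 25.8 CPM after LPS with torin1 in total mRNA. All LPS libraries were below the controls (-0.46 ± 0.13, adjusted p = 0.0131). On polysomes it had 17.5, 21.8 and 22.1 CPM in control cells, 16.5, 15.2 and 17.7 CPM after LPS, and 20.98, 15.6 and 19.7 CPM after LPS with torin1, where the ranges overlapped (-0.32 ± 0.17, adjusted p = 0.183) and the call was lost on leaving out any 1 of the 3 replicates. Tecpr1, an ATG5-binding protein of lysosomes, was not called (0.28 ± 0.35 and 0.11 ± 0.40), but it was called higher in total mRNA without replicate 1 and lower on polysomes without replicate 2.

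**Figure D1:**
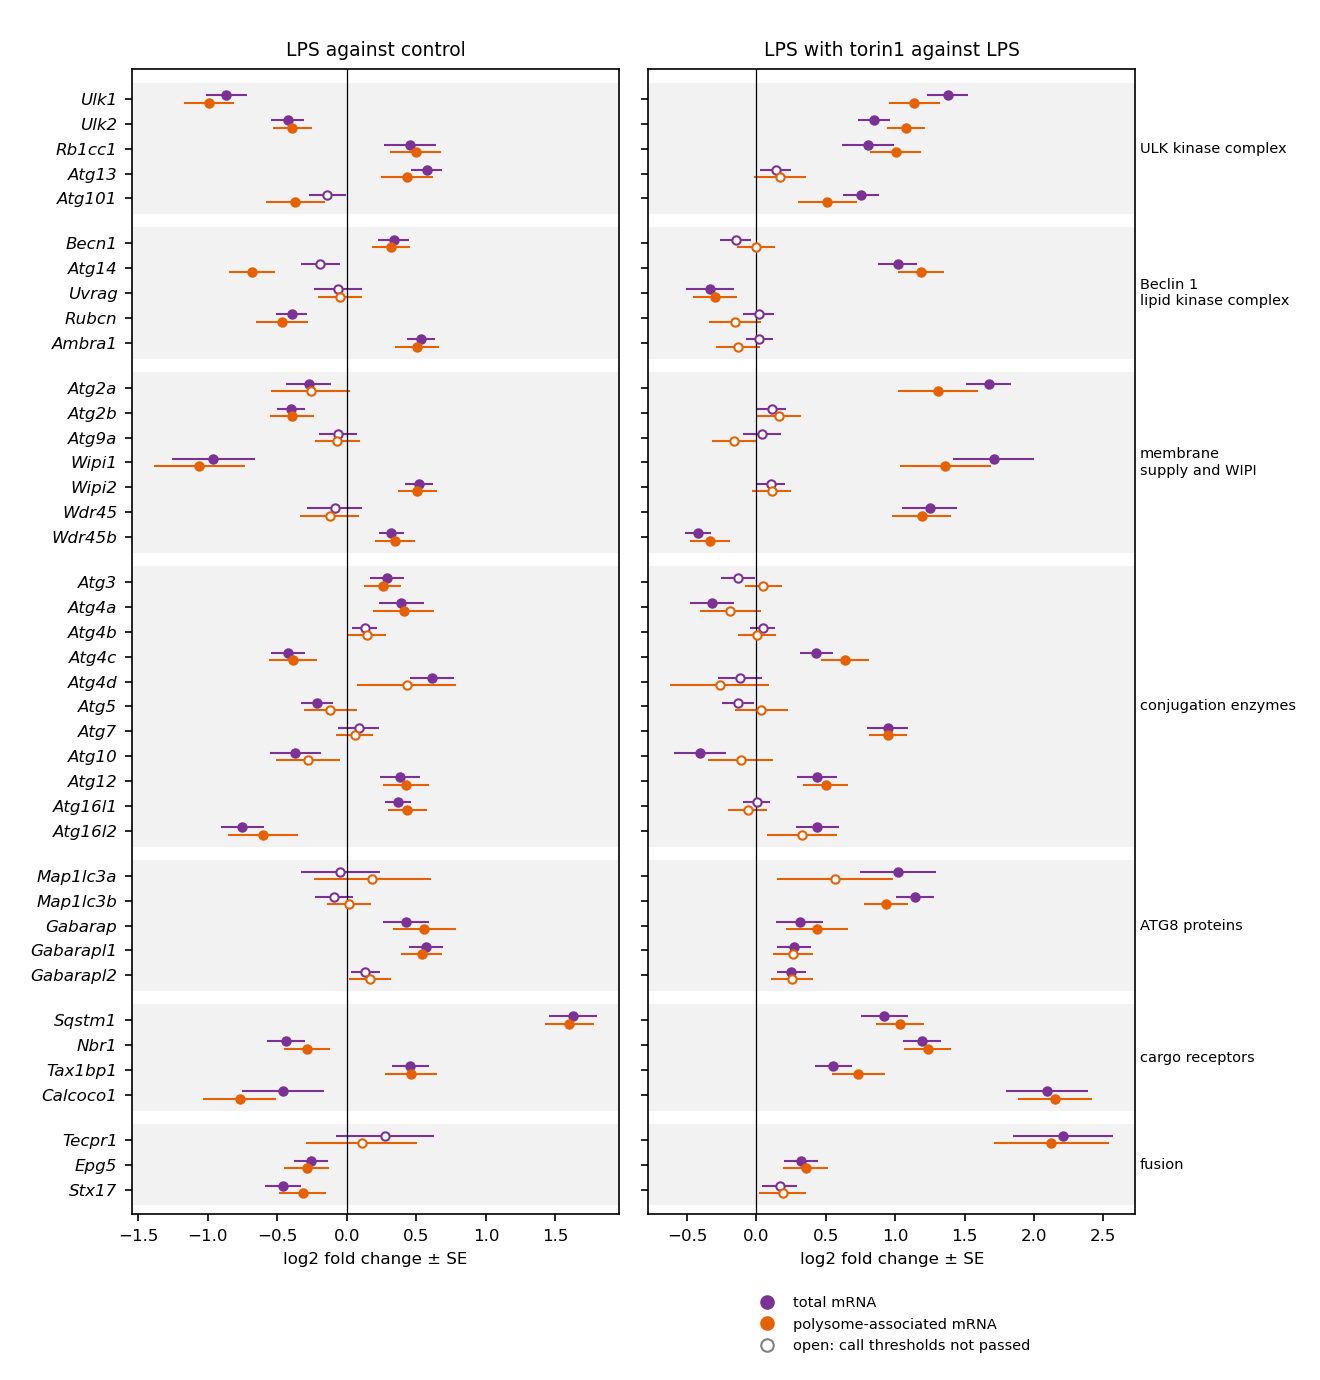
Log2 fold change ± SE (x axis) of the 40 counted autophagy genes, grouped by role, for LPS against control (left) and LPS with torin1 against LPS (right), in total (purple) and polysome-associated mRNA (orange), 3 libraries in each group. Filled points passed the threshold: under LPS 15 rose and 14 fell in total mRNA, and with torin1 23 rose and 4 fell.

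To ask which of these mRNAs changed in activated cells when mTOR was inhibited, LPS with torin1 was compared with LPS alone. With torin1 most called members were higher: 23 of 40 rose and 4 fell in total mRNA, beside 27.3% of all genes higher and 26.4% lower (53.7% called). In polysome-associated mRNA 19 rose and 2 fell, beside 20.3% higher and 18.2% lower (38.4% called). The members' medians were 0.32 and 0.34, against 0.00 over all genes in both RNA types. All 21 members called on polysomes were called the same way in total mRNA, and 6 more were called in total mRNA without a call on polysomes. The polysome count was 13 without replicate 3, all of them higher, and no share of all genes is given for that setting. With the replicate as a block, 25 rose and 5 fell in total mRNA and 23 rose and 2 fell on polysomes. Over all 11243 genes the block called 3662 higher and 3534 lower in total mRNA, and 2851 higher and 2736 lower on polysomes. The LPS libraries entered both this comparison and the one with control cells.

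All 4 counted cargo receptors of the list rose with torin1, in both RNA types. Receptors among the other autophagy genes, given further on, are not in this group and moved both ways. Sqstm1, already raised by LPS, rose a further 1.89-fold in total mRNA (0.92 ± 0.17, adjusted p = 0.00329) and 2.04-fold on polysomes (1.03 ± 0.17, adjusted p = 0.00431). The library with the lowest value among those with torin1 was above the highest of LPS alone. Calcoco1 showed the largest change of the group, 4.27-fold in total mRNA (2.09 ± 0.30, adjusted p = 0.000859) and 4.45-fold on polysomes (2.15 ± 0.27, adjusted p = 0.00108), and its values with torin1, listed above, exceeded those of every control and LPS library. Nbr1 rose by a log2 change of 1.19 ± 0.14 in total mRNA and 1.23 ± 0.17 on polysomes, and Tax1bp1 by 0.56 ± 0.13 and 0.74 ± 0.19.

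Of the 10 initiation genes, 5 rose and 1 fell in each RNA type. The shares of all genes were 27.3% higher and 26.4% lower in total mRNA, and 20.3% and 18.2% on polysomes. In the ULK complex 4 of 5 rose. Ulk1 rose most (1.38 ± 0.15, adjusted p = 0.000227 in total mRNA and 1.14 ± 0.18, adjusted p = 0.0034 on polysomes), followed in total mRNA by Ulk2 (0.85 ± 0.12), Rb1cc1 (0.80 ± 0.19) and Atg101 (0.75 ± 0.13). On polysomes these 3 rose by log2 changes of 1.08 ± 0.14, 1.00 ± 0.18 and 0.51 ± 0.21. Atg13 was not called (0.14 ± 0.11, adjusted p = 0.379 in total mRNA), but was called higher there with the replicate as a block (adjusted p = 0.182).

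Of the 5 listed genes grouped as the Beclin 1 complex, 2 were called. The lipid kinase complex genes Pik3c3 and Pik3r4 were followed among the other autophagy genes and are not in this set. Atg14 rose (1.02 ± 0.14, adjusted p = 0.000751 in total mRNA and 1.18 ± 0.17, adjusted p = 0.00192 on polysomes), with every torin1 library above every other library in both RNA types. Uvrag, whose product replaces ATG14 in another form of the complex, fell (-0.34 ± 0.17, adjusted p = 0.17 and -0.30 ± 0.16, adjusted p = 0.241). Becn1, Rubcn and Ambra1 had log2 changes of -0.15 ± 0.11, 0.02 ± 0.11 and 0.02 ± 0.10 in total mRNA and were not called, and Becn1 was called lower there with the replicate as a block (adjusted p = 0.239).

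Among the 7 membrane supply and WIPI genes 3 rose and 1 fell in each RNA type. Of all genes 27.3% were higher and 26.4% lower in total mRNA, and 20.3% and 18.2% on polysomes. The calls differed between paralogues, although the differences between paralogues were not tested. Atg2a rose 3.19-fold in total mRNA (1.67 ± 0.16, adjusted p = 0.000164) and 2.48-fold on polysomes, while Atg2b was at 0.11 ± 0.10 and 0.16 ± 0.16. Wipi1 rose 3.27-fold (1.71 ± 0.29, adjusted p = 0.00231) and Wdr45 2.38-fold (1.25 ± 0.20, adjusted p = 0.00158), while Wipi2 was not called (0.10 ± 0.10) and Wdr45b fell (-0.42 ± 0.09, adjusted p = 0.0076). On polysomes the changes were 1.36 ± 0.33, 1.19 ± 0.21, 0.11 ± 0.14 and -0.34 ± 0.14, with the same calls. Atg9a was not called in either RNA type.

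Of the conjugation genes, 9 rose and 2 fell in total mRNA, and 5 rose and 0 fell on polysomes, a count that was 9 with the replicate as a block. Without the block, 27.3% of all genes were higher and 26.4% lower in total mRNA, and 20.3% and 18.2% on polysomes. The enzyme with the largest change was Atg7 (chr6:114643097-114860614), which had 37.7, 52.1 and 40.4 CPM in control cells, 40.6, 53.7 and 43.9 CPM after LPS, and 80.7, 96.1 and 89.5 CPM after LPS with torin1 in total mRNA. The torin1 libraries were above all others, at 0.95 ± 0.15, adjusted p = 0.00153. On polysomes Atg7 had 49.5, 55.6 and 47.1 CPM in control cells, 48.2, 57.5 and 52.8 CPM after LPS, and 97.7, 106.8 and 101.01 CPM after LPS with torin1, with the same separation (0.95 ± 0.13, adjusted p = 0.00199). Atg12 and Atg4c rose in both RNA types, by log2 changes of 0.44 ± 0.14 and 0.43 ± 0.12 in total mRNA. Atg16l2 rose in total mRNA (0.44 ± 0.16, adjusted p = 0.0583), and on polysomes it was called with the replicate as a block (adjusted p = 0.22). Atg4a and Atg10 fell in total mRNA (-0.32 ± 0.16 and -0.41 ± 0.19). The remaining enzymes, Atg3, Atg4b, Atg4d, Atg5 and Atg16l1, lay between -0.13 and 0.04 in total mRNA and were not called in either RNA type.

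The 5 ATG8 genes all rose in total mRNA, the LC3 genes more than the GABARAP genes. Map1lc3b rose 2.20-fold (1.14 ± 0.14, adjusted p = 0.00038) and Map1lc3a 2.03-fold (1.02 ± 0.28, adjusted p = 0.0199), while Gabarap, Gabarapl1 and Gabarapl2 had log2 changes of 0.31 ± 0.17, 0.27 ± 0.12 and 0.25 ± 0.11. The difference between the LC3 and GABARAP genes was not tested. The call of Gabarap was lost without replicate 2 or replicate 3, and that of Gabarapl1 without replicate 3. On polysomes Map1lc3b (0.93 ± 0.16, adjusted p = 0.00509) and Gabarap (0.44 ± 0.22, adjusted p = 0.22, not called without replicate 1 or replicate 3) were called. Map1lc3a, Gabarapl1 and Gabarapl2 were called there only with the replicate as a block (adjusted p = 0.202, 0.129 and 0.136).

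Tecpr1 (chr5:144194442-144223615) showed the largest change of any member with torin1 in total mRNA. Its values there were 15.7, 21.2 and 18.7 CPM in control cells, 11.9, 36.3 and 19.1 CPM after LPS, and 68.8, 125.5 and 117.3 CPM after LPS with torin1. Every torin1 library exceeded every other library, and the change was 4.62-fold (2.21 ± 0.36, adjusted p = 0.00186). On polysomes Tecpr1 had 28.2, 25.4 and 23.8 CPM in control cells, 20.4, 44.7 and 18.3 CPM after LPS, and 62.2, 188 and 114.4 CPM after LPS with torin1, again without overlap (2.13 ± 0.41, adjusted p = 0.00884). Experiment 2 gave the highest value of each LPS-treated group in both RNA types. Epg5 rose (0.32 ± 0.12 and 0.36 ± 0.16). Stx17 was not called (0.17 ± 0.13 and 0.19 ± 0.17), but was called higher in total mRNA with the replicate as a block (adjusted p = 0.156).

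Of the 5 members with CACGTG in the promoter window, Atg14 and Atg7 rose with torin1. In total mRNA 23 of all 40 members and 27.3% of all genes were called higher. The RefSeq starts used for Atg14 and Atg7 lie inside the gene as GENCODE bounds it. Atg3, Atg5 and Rubcn had log2 changes of -0.13 ± 0.12, -0.13 ± 0.11 and 0.02 ± 0.11 in total mRNA and were not called. The other members with a matched promoter held no CACGTG, whether they rose or not. A link between the motif and the changes with torin1 was not tested.

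**Figure D2:**
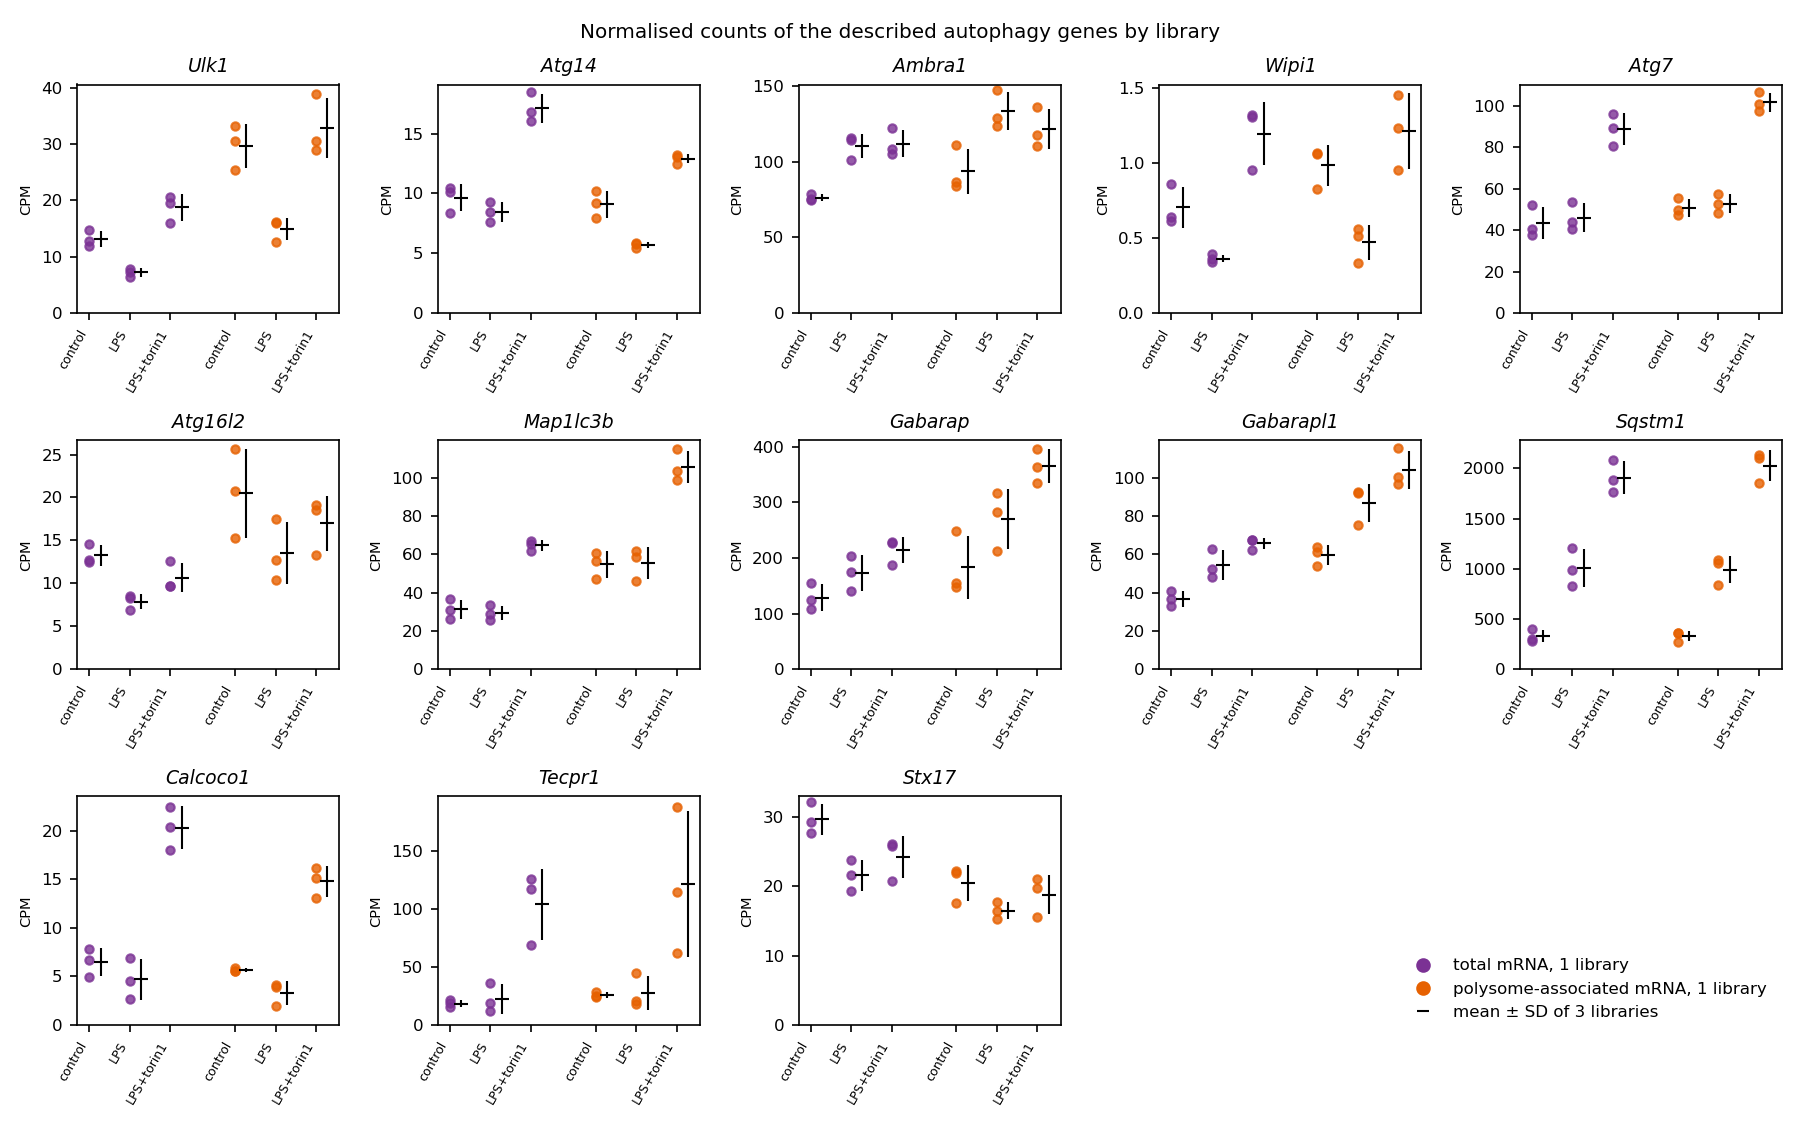
Normalised counts (CPM, y axis from 0) of 13 autophagy genes in each of the 18 libraries by treatment, total mRNA in purple and polysome-associated mRNA in orange, with the mean ± SD of 3 libraries in black. For Sqstm1, Atg7, Calcoco1 and Tecpr1 every LPS with torin1 library lies above every control and LPS library of the same RNA type.

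The groups were compared by the median log2 change of their members within each experiment, a description that carries no test because the members were chosen with earlier results of these data known. With torin1 in total mRNA the medians were 1.08 ± 0.34 for cargo receptors, 0.38 ± 0.17 for initiation and 0.25 ± 0.11 for conjugation (mean ± SD, n = 3 experiments), beside 0.01 for all genes. On polysomes they were 1.13 ± 0.25, 0.35 ± 0.12 and 0.23 ± 0.08. The cargo receptor median exceeded that of initiation in each of the 3 experiments, by 0.70 ± 0.18 in total mRNA and 0.78 ± 0.26 on polysomes, and that of conjugation by 0.83 ± 0.24 and 0.90 ± 0.18. Initiation exceeded conjugation by only 0.14 ± 0.06 and 0.12 ± 0.10. The cargo receptor group holds 4 genes against 10 and 16, and leaves out the receptors among the other autophagy genes. The initiation median joined unlike sets. That of the ULK complex was 0.81 ± 0.21 in total mRNA and 0.96 ± 0.18 on polysomes. That of the listed Beclin 1 complex genes, without Pik3c3 and Pik3r4, was -0.05 ± 0.04 and -0.05 ± 0.11. On polysomes in experiment 2 the ULK complex, at 0.964, was above the cargo receptors, at 0.875.

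Under LPS the 3 medians were close to 0. They were 0.06 ± 0.23 for cargo receptors, -0.05 ± 0.09 for initiation and 0.11 ± 0.07 for conjugation in total mRNA, and 0.09 ± 0.22, -0.15 ± 0.11 and 0.12 ± 0.06 on polysomes. Initiation lay below conjugation in every experiment, with a difference of -0.16 ± 0.13 in total mRNA and -0.27 ± 0.16 on polysomes. The cargo receptor median differed from the other medians by less than the spread between experiments.

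**Figure D3:**
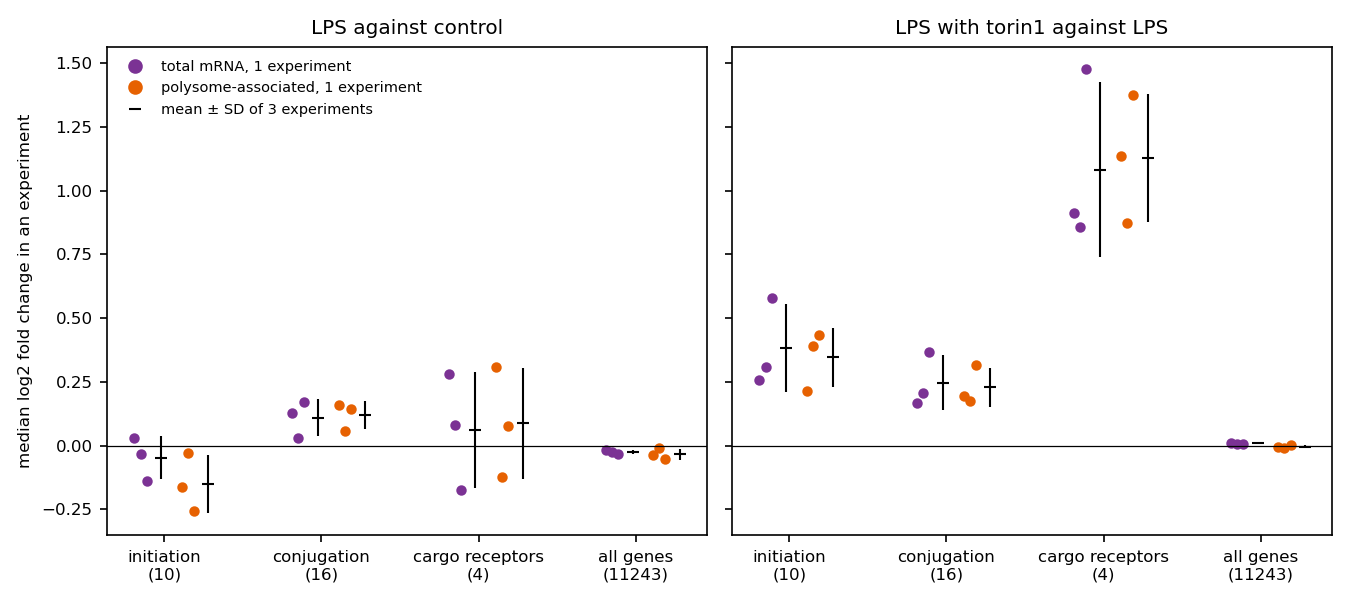
Median log2 fold change over the members of each group (y axis) in each of 3 experiments, for LPS against control (left) and LPS with torin1 against LPS (right), with mean ± SD in black, total mRNA in purple and polysome-associated mRNA in orange, and all 11243 genes beside them. With torin1 the cargo receptor medians lie between 0.86 and 1.48, above those of the other groups, and the medians of all genes are near 0.

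Set against control cells, LPS with torin1 left most of the machinery higher. In total mRNA 27 members rose and 7 fell, beside 33.1% and 33.6% of all genes (66.7% called), with a median of 0.53. On polysomes 23 rose and 3 fell, beside 28.5% and 29.7% (58.2% called), with a median of 0.37. This comparison shares its control libraries with the comparison of LPS and its torin1 libraries with the comparison above. Sqstm1 was highest, 5.85-fold above control in total mRNA (2.55 ± 0.18, adjusted p = 2.42e-06) and 6.20-fold on polysomes (2.63 ± 0.18, adjusted p = 5.31e-06). Tecpr1 (2.48 ± 0.37), Calcoco1 (1.64 ± 0.29), Atg2a (1.40 ± 0.16) and Rb1cc1 (1.26 ± 0.19) followed in total mRNA.

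Ulk1 stood above control in total mRNA (0.51 ± 0.14, adjusted p = 0.0143) and at 0.15 ± 0.18, adjusted p = 0.557 on polysomes, where it was not called. All 5 ATG8 genes were called higher in both RNA types. The 7 members below control in total mRNA were Uvrag, Rubcn, Atg2b, Atg5, Atg10, Atg16l2 and Stx17, with log2 changes between -0.78 and -0.29, and Uvrag, Rubcn and Atg10 were lower on polysomes as well. With the replicate as a block Atg3 was also called higher in total mRNA (adjusted p = 0.145). On polysomes the block added Atg4c as higher (adjusted p = 0.24) and Atg2b and Atg9a as lower (adjusted p = 0.131 and 0.223).

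Whether the mRNAs were also engaged differently by ribosomes was tested as translation efficiency, the change on polysomes beyond that in total mRNA, with a fold of at least 1.2 required beside the adjusted p. For LPS against control and for LPS with torin1 against LPS, 0 of the 40 members were called, as were 0% of all genes in edgeR. This model did not pair the RNA types of a lysate. The study, using anota2seq at the same false discovery rate, reported changed translation efficiencies for a subset of mRNAs under LPS, largely reversed by torin1. A count of 0 here therefore does not mean that translation was unchanged. With the replicate as a block 0 members were called again, while over all genes 0 were called with LPS and 25 with torin1, all of them lower. At an unadjusted p under 0.05 there was 1 member with LPS, Atg14, and 0 with torin1. DESeq2 and the analysis of partial variance also called 0 members in either comparison. Their counts over all genes are not given here, so these values show nothing particular to the members. Over all genes the unadjusted p was under 0.05 for 44 and 110, and with the block for 164 and 303. The members' values ranged from -0.49 to 0.23 with LPS and from -0.48 to 0.27 with torin1. Their precision varied, from 0.07 ± 0.15 for Atg16l1 to -0.17 ± 0.58 for Tecpr1 with LPS, where the block gave -0.15 ± 0.23 for Tecpr1.

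In control cells the members differed in how much of their mRNA was on heavy polysomes. With a fold of at least 1.2 again required beside the adjusted p, 20 of 40 were higher on polysomes than in total mRNA and 5 lower. Of all genes 34.3% were higher and 31.1% lower (65.5% called). The members' median log2 ratio was 0.29. The ratio is relative, since each library was scaled to its own total. All 5 ATG8 genes were higher, from 0.51 ± 0.21 for Gabarap to 1.36 ± 0.38 for Map1lc3a, with Map1lc3b at 0.81 ± 0.15, adjusted p = 0.000493. Ulk1 (1.18 ± 0.16, adjusted p = 8.03e-05), the protease Atg4d (1.46 ± 0.30, adjusted p = 0.00119) and Atg9a (1.00 ± 0.15, adjusted p = 0.000134) were higher too.

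Lower on polysomes were the receptors Nbr1 (-0.77 ± 0.16, adjusted p = 0.00117) and Tax1bp1 (-0.71 ± 0.17, adjusted p = 0.00318), the ULK complex members Rb1cc1 (-0.75 ± 0.20) and Ulk2 (-0.63 ± 0.12), and Stx17 (-0.53 ± 0.15). Sqstm1, the most abundant member, was at 0.01 ± 0.17, and Calcoco1 at -0.20 ± 0.28, neither of them called. By group, 5 of 10 initiation genes were higher and 2 lower, 10 of 16 conjugation genes were higher and 0 lower, and 0 of 4 cargo receptors were higher and 2 lower. The shares of all genes were 34.3% higher and 31.1% lower. The cargo receptor median minus that of initiation was -0.65 ± 0.11, and minus that of conjugation -0.82 ± 0.21 (mean ± SD over 3 experiments). Tecpr1 was called higher only with the replicate as a block (adjusted p = 0.0191).

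**Figure D4:**
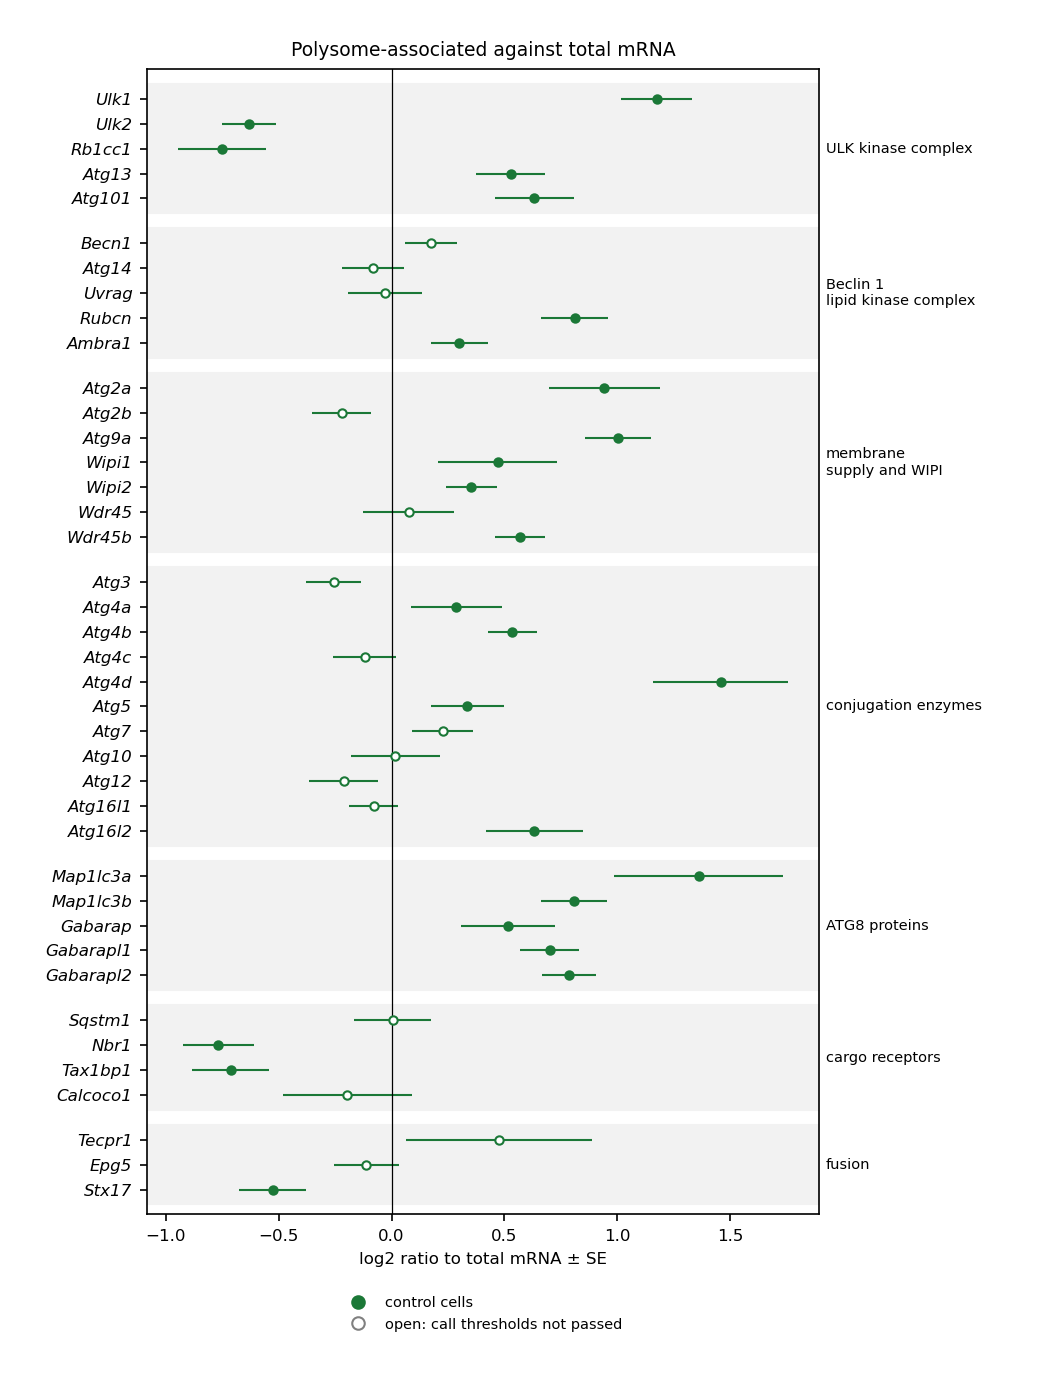
Log2 ratio of polysome-associated to total mRNA ± SE (x axis) in control cells for the 40 counted autophagy genes, grouped by role, 3 libraries of each RNA type, with filled points passing the thresholds. All 5 ATG8 genes lie to the right of 0, while Nbr1, Tax1bp1, Rb1cc1, Ulk2 and Stx17 lie to the left.

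Beyond the listed members, 34 other autophagy genes were followed, among them lipid kinase subunits, further receptors, fusion factors and regulators. With LPS 13 rose and 10 fell in total mRNA and 13 rose and 7 fell on polysomes, where 11 fell with the replicate as a block. Of all genes 32.2% were higher and 34.3% lower with LPS in total mRNA, and 26.4% higher and 28.7% lower on polysomes. With torin1 22 rose and 4 fell in total mRNA and 16 rose and 2 fell on polysomes, beside the 27.3% higher and 26.4% lower and the 20.3% higher and 18.2% lower of all genes. Those with the largest rises under LPS in total mRNA were Vmp1, a lipid scramblase of the endoplasmic reticulum (1.09 ± 0.13, adjusted p = 0.000101), Tbk1, the kinase that phosphorylates cargo receptors (1.07 ± 0.09, adjusted p = 1.08e-05), and Snap29, the SNARE partner of Stx17 (1.03 ± 0.15, adjusted p = 0.000345). Those with the largest falls were Tfeb (-2.54 ± 0.20, adjusted p = 6.88e-06), Trp53inp1 (-1.59 ± 0.45, adjusted p = 0.0158) and Plekhm1, an adaptor for fusion with lysosomes (-1.14 ± 0.13, adjusted p = 6.37e-05).

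Tfeb, a regulator of many genes of this pathway, averaged 15.4 ± 2.80 CPM in control cells, 2.63 ± 0.42 CPM after LPS and 5.14 ± 0.75 CPM after LPS with torin1 in total mRNA (SD, n = 3). It rose with torin1 (0.96 ± 0.20, adjusted p = 0.00648) but stayed below control (-1.58 ± 0.19, adjusted p = 9.68e-05). On polysomes its change with torin1 was 0.52 ± 0.31, adjusted p = 0.283, which was not called. Torin1 gave the largest rises for Ccpg1, an endoplasmic reticulum receptor with at most 1.08 CPM in total mRNA (1.47 ± 0.58, adjusted p = 0.0809), Plekhm1 (1.41 ± 0.13, adjusted p = 0.000141) and Retreg1, another such receptor (1.29 ± 0.13, adjusted p = 0.000183). Bnip3, a mitochondrial receptor, fell most (-1.46 ± 0.24, adjusted p = 0.00204), followed by Tmem41b (-0.50 ± 0.12, adjusted p = 0.0125) and Snap29 (-0.25 ± 0.15, adjusted p = 0.247).

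Several members may share reads with other annotated genes, and the strand setting used in counting is not given in the sources used here. Becn1 overlaps Cntd1 on the opposite strand over 43.9% of its exon length, Sqstm1 overlaps Mrnip over 17.3% and Atg4d overlaps Kri1 over 19.3%. The count of Atg4a may include or lose reads of Atg4a-ps, which is 99.3% identical over 2115 bases, and Map1lc3b has 4 processed pseudogenes of at least 96.5% identity. Without the 13 members of this kind, 8 rose and 13 fell with LPS in total mRNA, against 15 and 14 of all 40. The near-even split with LPS thus rested in part on these members. With torin1 17 rose and 1 fell there, against 23 and 4. Of all genes, 32.2% were higher and 34.3% lower with LPS, and 27.3% higher and 26.4% lower with torin1.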

How the data were processed

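RNA of 9 lysates (3 treatments in 3 experiments) was sequenced by the authors as total and heavy-polysome-associated mRNA with a stranded, ribosomal-RNA-depleted kit. The authors processed the reads with the nextflow RNAseq pipeline 1.3 (Hisat2, GRCm38, featureCounts with Ensembl genes), kept protein-coding genes, removed genes with 0 counts in any sample and deposited raw counts per gene. That removal leaves out genes silent under 1 treatment. Groups came from the sample labels. The deposited counts were tested here with edgeR 4.0.16 in R 4.3.3 (quasi-likelihood test, TMM factors, Benjamini-Hochberg adjustment over 11243 genes) in 9 libraries of each RNA type. Translation efficiency and the ratio of RNA types in control cells came from 1 model over 18 libraries, and calls in both required a fold of at least 1.2. anota2seq, used by the study, was not used here. Log2 CPM within experiments used a pseudocount of 0.5. Depth was 27800983 to 47725557 counts. Scripts were tested on simulated data.

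The members, gene lists and tests were chosen with earlier results of these data known. All counted members were named. Values in every library were given for Ulk1, Map1lc3b and Sqstm1 and, in each role and comparison (LPS with control, LPS with torin1 with LPS, each RNA type), for the member with the largest change among those called and moving the same way in the 3 experiments. Of the other autophagy genes, the 3 highest and 3 lowest called in total mRNA were named. With treatment means removed, libraries of 1 experiment deviated together in total mRNA (correlation across genes of 0.15 to 0.43 in the 9 pairs, mean 0.34). Among polysome-associated libraries the same correlation was -0.09 to 0.74, mean 0.29. No correlation was computed between the RNA types, which came from the same lysates. The replicate numbers were taken as pairing the samples. Main values come from fits without the block, and blocked values are given where they change a call. Replicate libraries differed by more than sampling noise (chi-squared per degree of freedom 26.3 to 252). Alternatives were DESeq2 1.42.0 (size factors, Wald test), a filter of 10 counts in every library, the replicate block, leaving out each replicate, other sets of libraries in the model, an adjusted p of 0.05 and, for translation efficiency, partial variance. Leaving out members that may share reads (another annotated gene over more than 10% of exon length, or a copy of at least 95% identity over 300.0 bases) was added after seeing the data.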

Additional observations from a re-analysis of the deposited data

How the results depend on the processing

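At an adjusted p of 0.05 the members called with LPS fell to 19 in total and 9 in polysome-associated mRNA, where fewer genes pass by construction. Counts over all genes are not given for this threshold or for leaving out 1 replicate. Nothing particular to the members can therefore be read from these counts. Leaving out 1 replicate gave 12 to 26 called members with LPS and 13 to 23 with torin1 in polysome-associated mRNA, with 2 libraries left in each group. The same step moved the LPS median of the initiation genes in total mRNA between -0.15 and 0.0010 and that of the conjugation genes on polysomes between 0.085 and 0.22, so the sign of the first rests on replicate 3. With the replicate block, 32 of 40 members were called with LPS in total mRNA, beside 8223 of 11243 genes. On polysomes 27 members were called, beside 7062 genes. With torin1 the counts were 30 members, beside 7196 genes, in total mRNA and 25, beside 5587 genes, on polysomes. The calls that the block changed are given beside the results, and it changed no other call of a member.

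Of 468 alternative values of the 52 changes of the members described by library, 437 kept their direction and their side of the threshold, 17 were no longer called and 8 became called. The other 6 changed sign, each from a value that was not called: under LPS, leaving out 1 replicate put Map1lc3b between -0.191 and 0.0397 in total mRNA and between -0.0478 and 0.0538 on polysomes, and Tecpr1 between -0.149 and 0.484 and between -0.427 and 0.357. Tecpr1 was -0.0466 on polysomes with the replicate block. With torin1, leaving out 1 replicate put Ambra1 between -0.0148 and 0.0714 in total mRNA. The lowest value of Tecpr1 on polysomes, without replicate 2, passed the threshold. Calcoco1 with LPS in total mRNA was also not called with DESeq2 size factors or with only those treatments in the model. The cause of these changes was not tested. Errors were wide for Tecpr1, at 0.35 with LPS in total mRNA, and for members with few counts such as Wipi1, at 0.30.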
